A study of Homo sapiens with 24 samples.

Results

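Regions of polyadenylated RNA from U2OS cells were recovered by an antibody against N6-methyladenosine (m6A). Of 20811 merged regions, 1645 had a listed peak in wild type cells with and without UV but none in either METTL3 knockout condition. Members were chosen by the peak lists themselves: peaks of the 4 lists that shared at least 1 base on the same transcript were joined into a region, and a region was a member when it held a peak of both wild type (WT) lists and none of either knockout (KO) list. U2OS is a human osteosarcoma cell line, and METTL3 is the catalytic subunit of the nuclear m6A methyltransferase. WT and METTL3 KO cells were grown with 10 µM BrdU, which all groups share, were given UVC at a dose stated as 50 J or were left without it, and were lysed 2 min later. Each condition is a single list covering 3 (WT, no UV), 4 (WT, UV), 3 (KO, no UV) or 2 (KO, UV) IP libraries, each with its input. The labels do not say whether the KO cells are 1 clone. Peaks come with neither reads nor scores, so their depth is unknown, there is no spread between replicates, and every interval below is a 95% interval for counting error alone, with regions on the same transcript taken as independent although they are not.

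m6A is placed on adenosines within messenger RNA by METTL3 together with METTL14 and adaptor proteins such as WTAP and VIRMA, and is read by proteins of the YTH family, some of which shorten the life of the RNA. It is known to gather in long internal exons and around stop codons. Antibodies against m6A also bind a related mark on the base next to the cap, which is written by PCIF1 and not by METTL3, so that peaks at the very start of a transcript can come from either mark. Since a peak depends both on the share of copies that carry the mark and on how much of the RNA is present, fewer marked copies and less RNA per cell cannot be told apart from the peak lists of these bulk samples. The read data of the input libraries, which measure RNA level, were not analysed here.

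For members at the start of a transcript, sequence could be read for genes with a single RefSeq transcript and a single listed start. Of 148 members that began within the first 20 bases, 14 met this condition. The 30 bases from the gene start are printed for 8 of them: the 7 whose peaks began at base 1 in both WT lists, and AP1S1, chosen after its sequence was seen because it holds GGAC. Capitals mark GGAC, a core of the sequence preferred by the methyltransferase (RefSeq, GRCh38.p14, 5′ to 3′ on the strand of the gene).
BMP6: agaaagcccacgttggccgctgcggggagc
CELSR2: gcagagctcgcccgcccgccggggaggcga
EFCAB14: gaagtgatctggggctggagcgatggcccg
MATN3: gcccccgacGGACaccaccaggcccacgga
POLR3A: gcagatgtgttagcggcgagtccagaagca
PRIM1: cttaccgtggcgagttccgcgctcaatgga
SPIRE2: aggctgaccctgcgcggcggaaggcgcggc
AP1S1: ggtggccgaagtgGGACgcgccgagccgga

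These windows lie at chr6:7726099-7726128 (plus strand) for BMP6, a bone morphogenetic protein, chr1:109249539-109249568 (plus) for the cadherin CELSR2, chr1:46719085-46719114 (minus) for EFCAB14 and chr2:20012639-20012668 (minus) for the matrix protein MATN3. They lie at chr10:78029486-78029515 (minus) for POLR3A, the largest subunit of RNA polymerase III, chr12:56752294-56752323 (minus) for the DNA primase PRIM1, chr16:89828475-89828504 (plus) for the actin nucleator SPIRE2 and chr7:101154476-101154505 (plus) for the adaptor subunit AP1S1. The BMP6 peak ran from base 1 to 200 with and without UV in WT cells, the CELSR2 peak from 1 to 100, the EFCAB14 peak from 1 to 138 and the POLR3A peak from 1 to 120 in both lists. The MATN3 peak ended at base 110 without UV and at 170 with it, and the AP1S1 peak ran from 11 to 110 without UV and from 21 to 120 with it, so the marked GGAC of AP1S1 lay inside the first peak and before the start of the second. In the 50 bases after the gene start, GGAC was found in 3 of the 14 members (21.4%, 7.57 to 47.6), in 22 of 91 other regions that began as early and were in both WT lists (24.2%), and in 18.8% of all 27305 genes of the sequence table. On the opposite strand the values were 4 of 14, 13 of 91 and 17.6%. The first base was A in 5 of the 14 members and in 52 of the 91 other regions, a difference of -21.4 points with an interval of -43.1 to 6.08 that holds 0. For GGAC the interval of the difference was -19.7 to 24.5 points on the strand of the gene and -4.65 to 41.0 on the opposite strand. With 14 members no difference was detected in these features, and the wide intervals do not exclude one.

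Members made up 7.90% of all regions and 16.0% (15.4 to 16.8) of the 10250 regions with a peak in both WT lists. The mirror set, found in both KO lists but in neither WT list, held 527 regions, or 2.53% of all regions and 7.59% (6.99 to 8.24) of the 6943 regions in both KO lists. The rule fixes both counts. Of the other regions in both WT lists, 5340 had a peak in both KO lists, 2572 in KO minus UV alone and 693 in KO plus UV alone, the list from 2 IP libraries. Members held 1680 of the 13989 WT minus UV peaks and 1678 of the 15465 WT plus UV peaks (10.9%). For KO cells the list without UV had 13852 peaks, and the list with UV had 9471. The shares of members and of the mirror set therefore rest on lists of unequal size. Of the 1645 members, 1592 held a single peak of each WT list, and the other 53 held more than 1 peak of a list.

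**Figure D1:**
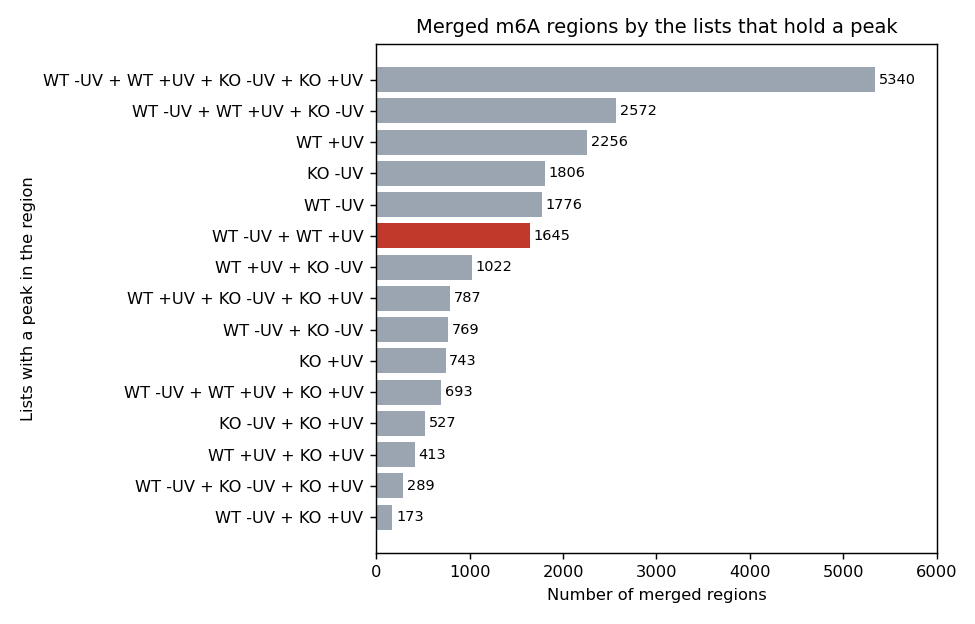
Bars give the number of merged regions (x axis) for each combination of lists with a peak (y axis), with members in red. The 1645 members are fewer than the regions in every list (5340), those missing from KO plus UV alone (2572), and those in WT plus UV alone (2256).

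Members lay on 1381 transcripts, of which 1161 carried 1 member, 181 carried 2, 35 carried 3, 3 carried 4 and 1 carried 5. On 663 of these transcripts (48.0%, 45.4 to 50.7) no KO peak was listed anywhere, and these held 830 members, or 50.5% (48.0 to 52.9). The other 815 members lay on transcripts with a KO peak elsewhere, so RNA of the same transcript was recovered from KO cells. In the mirror set, 176 of 527 regions (33.4%) lay on transcripts with no WT peak. On 415 member transcripts every region was a member, and 303 (21.9%) also carried a region present in every list.

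For the 815 members with a KO peak elsewhere, the median distance to it was 585 bases, with quartiles at 220 and 1394 bases and the furthest at 8734. The nearest KO peak was within 100 bases for 101 (12.4%, 10.3 to 14.8) and over 1000 bases away for 288 (35.3%). Just inside the rule lay 12 members with a KO peak 10 bases away or less. SESN2, a stress-induced regulator of mTOR signalling, was the closest: its member at bases 2092 to 2235 touched a KO minus UV peak that ended at base 2091. Both WT lists also had a peak that ended at 2091, and the region up to that base was in every list, so no base separates the SESN2 member from a region that KO cells share. ATP7B, a copper transporter, had its member 1 base from a KO peak, SMNDC1, a splicing factor, 2 bases, and TMED5, a cargo receptor, 3 bases. The ATP7B and SMNDC1 members also touched, with no base between, a region that held WT and KO peaks. Just outside the rule lay 4 regions whose WT bases were shared with KO peaks over 10 bases or less, in KIAA0319L (3 bases), NXPE3 (8), the deaminase gene DCTD (10) and the pseudogene GUSBP14 (10). In all, 48 members touched another region with no base between, and for 18 of them that region held a KO peak.

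**Figure D2:**
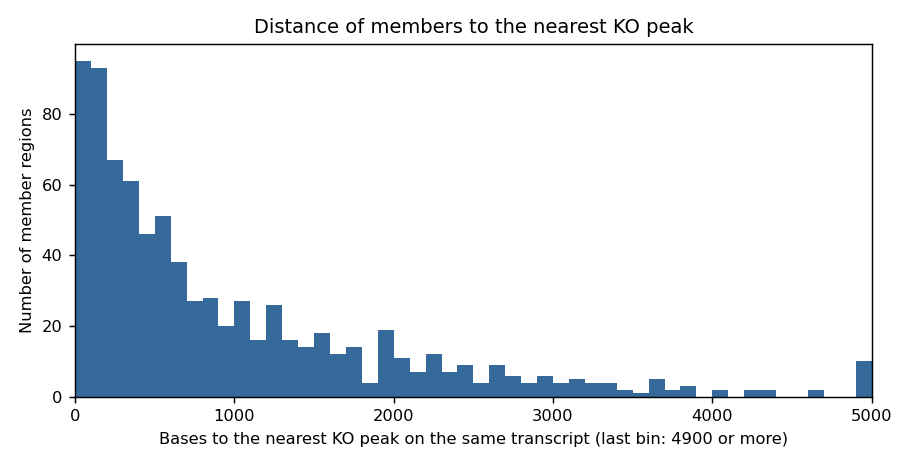
Number of members (y axis) by the distance in bases to the nearest KO peak on the same transcript (x axis, 100-base bins, with all distances of 4900 or more in the last bin), for the 815 members whose transcript carries a KO peak. Counts are highest in the bins nearest to a KO peak and decline with distance, with a median of 585 bases.

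KAT6B, a histone acetyltransferase (chromosome 10, 74824936 to 75032624, GRCh38), carried 5 members, more than any other gene. Its members spanned bases 811 to 1053, 3826 to 4079, 4739 to 5040, 6003 to 6220 and 6329 to 6722 of the transcript. The only KO peak of the gene, at 6881 to 6980 in KO minus UV, lay 158 bases beyond the last member, inside a region also found in both WT lists. That region began at base 6723, so it touched the last member with no base between. The WT peaks at the first KAT6B member ran from 811 to 1053 without UV and from 851 to 1010 with it. Those at the third ran from 4941 to 5040 and from 4739 to 5037. Of the 6 KAT6B regions shared by the WT lists, the 5 nearest to the transcript start had no KO peak and the last one had.

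RIF1, which guides double-strand break repair and replication timing, carried 4 members between bases 4052 and 6070 and no KO peak. Its other 6 regions were in 1 WT list only, 4 without UV and 2 with it. ABAT, an enzyme that breaks down the transmitter GABA (chromosome 16, 8674617 to 8784570), carried 4 regions, at 2828 to 3050, 3188 to 3425, 3584 to 3789 and 4207 to 4360, and all 4 were members. PTGFRN, a membrane protein that binds tetraspanins (chromosome 1, 116909916 to 116990353), carried 4 members, of which 1 began at the first base and 2 touched each other at bases 2838 and 2839 in both WT lists. Neither ABAT nor PTGFRN had a KO peak.

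**Figure D3:**
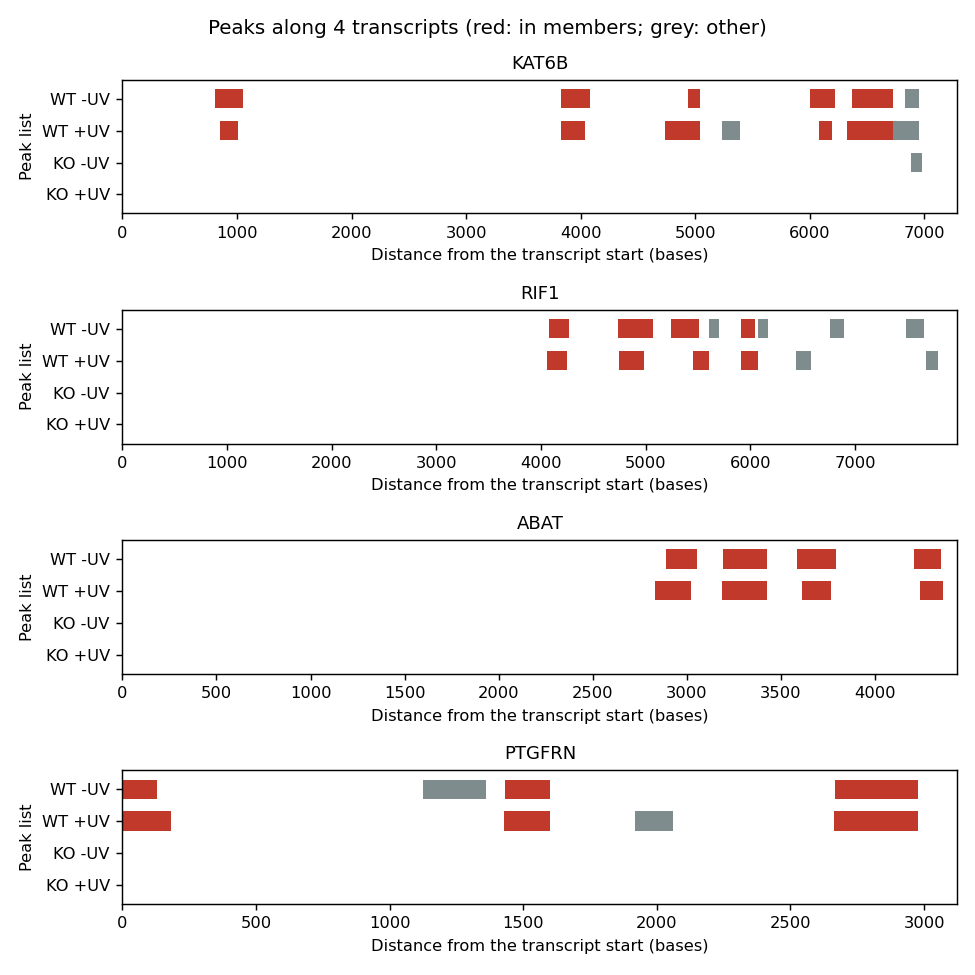
Peaks of the 4 lists (y axis) along the KAT6B, RIF1, ABAT and PTGFRN transcripts (x axis, bases from the transcript start), with peaks of members in red and other peaks in grey. The single KO peak among the 4 genes is the KO minus UV peak of KAT6B at its last region.

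The next 8 genes, ranked by number of members and then by their summed length, carried 3 members each. TNXB, an extracellular matrix protein, carried 3 regions over 1181 bases, all members, and no KO peak. KCNQ3, a potassium channel subunit, and FAM193B also carried 3 regions that were all members. RAB11FIP2, an effector of the RAB11 recycling pathway, and SH3RF3 carried 3 members and a further region in WT plus UV alone. PPARGC1B, a coactivator of mitochondrial gene expression, carried 3 members and a KO minus UV peak 312 bases from the nearest. ARMC5 carried 3 members and a KO plus UV peak 301 bases away, and PLEC, the cytoskeletal linker plectin, carried 3 members between bases 4981 and 7600 and a first KO peak at base 9509.

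The longest members were mostly on transcripts with no KO peak. CYB561D1, a cytochrome b561 family protein, had the longest, at 757 bases (454 to 1210), covered over 577 bases without UV and 757 with it. ZNF821, a zinc finger gene, followed with 692 bases in 3 abutting peaks of each WT list, and S1PR5, a sphingosine 1-phosphate receptor, with 666 bases that began 4 bases after a KO minus UV peak. PPFIBP2 (632 bases), MORC4 (628), RIMS4 (626), GPATCH8 (610), SAMD5 (605), the growth hormone receptor gene GHR (597) and the antiproliferative gene BTG1 (590) completed the 10 longest, and S1PR5 alone among them had a KO peak on its transcript. EEPD1 (910 bases over 2 members) and RGL1 (880 bases over 2) were the other genes without a KO peak that led by summed length.

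Members were shorter and covered fewer WT bases than the other 8605 regions in both WT lists, which is given as a description because the same peaks chose the members. The median merged length was 206 bases for members and 232 for the others, and the median bases covered were 180 against 200 without UV and 180 against 204 with it. Neither is the width of a single peak. Merged length of the others includes their KO peaks, which members lack by the rule. Bases covered sum all peaks of a WT list in a region. A single peak of each WT list was held by 1592 of the 1645 members and 7737 of the 8605 others. Peaks of 100 bases, the narrowest in the lists, made up 8.81% of members and 4.37% of the others without UV. The centres of the 2 WT peaks lay a median of 14.5 bases apart in members and 9 in the others.

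Within members the peak was about as wide with UV as without it. It was wider with UV in 796 members (48.4%, 46.0 to 50.8), narrower in 747 and equal in 102, and the median difference over the 1592 members with a single peak in each WT list was 0 bases (quartiles -22 and 26). In the other regions of both WT lists the UV peak was wider in 51.1%, a difference of -2.73 points (-5.36 to -0.096), and the interval held 0 when only peaks wider than 100 bases were used (-2.16). The extremes, chosen after their values were seen, ran both ways. The SAMD5 peak covered 586 bases without UV and 177 with it, and the PUDP peak 440 and 100. Next came the peak in the pseudokinase receptor PTK7, with 455 and 160. The peak in MAVS, an adaptor of antiviral signalling, covered 170 bases without UV and 577 with it, and that in the kinase anchor AKAP10 covered 100 and 405. With 1 list per condition, UV and the number of libraries behind a list cannot be told apart in these widths.

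Members were compared with the other regions in both WT lists on features that the rule did not use. Noncoding transcripts held 46 members (2.80%) against 1.81%, a difference of 0.98 points (0.23 to 1.93), and 38 of the 46 were on transcripts with no KO peak. With 1 region per transcript, the longest in both WT lists, the difference was 1.82. That setting drops members beside a longer region with a KO peak, so its set of members leans to transcripts without one. Zinc finger genes named ZNF held 44 members (2.67%) against 169 of the 8605 others, a difference of 0.71 points whose interval held 0 (-0.035 to 1.65) and excluded it under 4 of the 6 alternatives tried. Members began within the first 20 bases of the transcript in 148 cases, against 626 of the 8605 others (7.27%), 1.72 points more (0.31 to 3.29), but with 1 region per transcript the difference was 0.50 (-1.13 to 2.43), and without the KO plus UV list it was 2.74. Over the first 100 bases the shares were 15.7% and 14.6%, and the interval of the difference held 0 (-0.68 to 3.14); with the KO plus UV list left out of the rule it was 4.91 points (3.20 to 6.70).

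Among members on transcripts with several regions, 36.8% were the first region against 32.9% of the others, a difference of 3.86 points (1.06 to 6.73) that was 2.65 (-1.44 to 6.92) with 1 region per transcript, 6.45 with peaks of at least 150 bases and 7.11 without the KO plus UV list. The share that were the last region was 34.7% against 34.4%, with an interval of -2.44 to 3.18. Genes of at least 100000 bases held 27.5% of members and 23.7% of the others, 3.72 points more (1.42 to 6.12). That difference was 0.27 (-1.69 to 2.30) without the KO plus UV list in the rule and 2.37 (-0.44 to 5.39) with 1 region per transcript, so both intervals held 0. Members on transcripts with and without a KO peak also differed here: 32.6% of the former and 22.3% of the latter lay on such genes.

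Genes with a member were 1360, or 14.2% of the 9560 genes with a region in any list and 21.9% of the 6205 with a region in both WT lists. Shares of each of 26 gene lists are set beside the 14.2%, with intervals that were not widened for the number of lists. Histone modifiers and chromatin remodellers held members in 24 of 75 genes (32.0%, 22.5 to 43.2). Besides KAT6B they included the demethylase KDM4B and the SWI/SNF subunits SMARCC2 and SMARCA4 with 2 members each. Counted by regions, 35 of the 176 shared by the WT lists were members (19.9%, beside 16.0% of all such regions), so the list stood nearer to the background by regions than by genes.

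Targets of p53, the transcription factor activated by DNA damage, held members in 8 of 26 genes (30.8%, 16.5 to 50.0) and in 10 of 36 regions (27.8%, beside the same 16.0%). ZMAT3, an RNA-binding protein, and TP53INP1 carried 2 members each and no KO peak. SESN1 carried a member that ran from base 1 to 218 without UV and from 1 to 107 with it, 126 bases before a KO plus UV peak, and RRM2B, a ribonucleotide reductase subunit, carried 1. TP53INP1 and RRM2B lie on chromosome 8, where members were 25.9% of the regions in both WT lists. The member of SESN2, also on this list, touched a region present in every list. ATR, ATM and checkpoint genes held members in 5 of 21 (23.8%, 10.6 to 45.1). RAD1, a part of the 9-1-1 clamp, carried 2, and its first peak spanned bases 91 to 190 in both WT lists. The kinase genes CHEK1 (834 to 1002) and CHEK2 (38 to 223) each carried a single region, which was a member. In WEE1, the kinase that restrains mitotic entry, the member at 30 to 315 lay 5 bases before a KO minus UV peak. The region of that peak, also in both WT lists, touched the member with no base between.

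Nucleotide excision repair genes, which remove UV lesions from DNA, held members in 4 of 24 (16.7%, 6.68 to 35.9): CUL4B, GTF2H1, ERCC5 and RPA2. RPA2 had no KO peak, while ERCC5 and GTF2H1 each also carried a region present in every list. Double-strand break repair held 5 of 34 (RIF1, WRN, LIG4, MCM8 and UIMC1), translesion synthesis 2 of 15 (USP1 and RAD18), and replication and Fanconi anaemia genes 6 of 44, with SLX4 and TICRR at 2 members each. All of these intervals held 14.2%. 

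Genes of mRNA decay held members in 8 of 42. The decapping enzyme gene DCP2 carried 3 and no KO peak, and the deadenylase subunit gene PAN3 and the Argonaute gene AGO1 carried 1 each. AKT, mTOR and PI3K pathway genes held 5 of 24 (20.8%, and 17.5% of regions), with 3 members in the phosphatase gene PHLPP1. BTB family genes held 14 of 71 (19.7%, and 21.0% of regions), with 3 in ZBTB34. Solute carriers held 32 of 181 (17.7%), deubiquitinases 8 of 50 (16.0%), and TGF-beta, BMP, WNT and NOTCH genes 8 of 53 (15.1%). MAP kinase and DUSP genes held 6 of 47 (12.8%) and ZNF genes 37 of 269 (13.8%). RING and TRIM ligases held 9 of 90 (10.0%), and collagens, laminins, integrins and ADAM genes 5 of 58 (8.62%). Each of the lists named here had an interval that held 14.2%.

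Genes of the m6A machinery held members in 1 of 21 with a region (4.76%), and the interval of 0.85 to 22.7 held the 14.2% of all genes. Only 15 of the 21 had a region in both WT lists. The 1 gene was YTHDC1, the nuclear m6A reader, whose member at 171 to 374 lay between regions also found in KO cells. METTL3 carried 2 regions in both WT lists, and neither was a member because KO cells also had a peak there, so the transcript was recovered from cells labelled KO. These peaks do not check the knockout. Immediate early genes held 1 of 19 (5.26%, MCL1), ribosomal protein genes 1 of 19 (5.26%, RPL13A) and mitotic genes 3 of 39 (7.69%, INCENP, KIF11 and TTK). Their intervals also held 14.2%. Heat shock and unfolded protein response genes held 0 of 24, which allows a share of up to 12.5% by a limit of 3 counts, with a Wilson upper limit of 13.8%. Among cell type markers, the osteoblast lineage list held 1 member gene of 8 with a region (BMP2), epithelial markers 0 of 3 and neuronal markers 0 of 2, and none of the 14 blood markers had a region in any list.

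**Figure D4:**
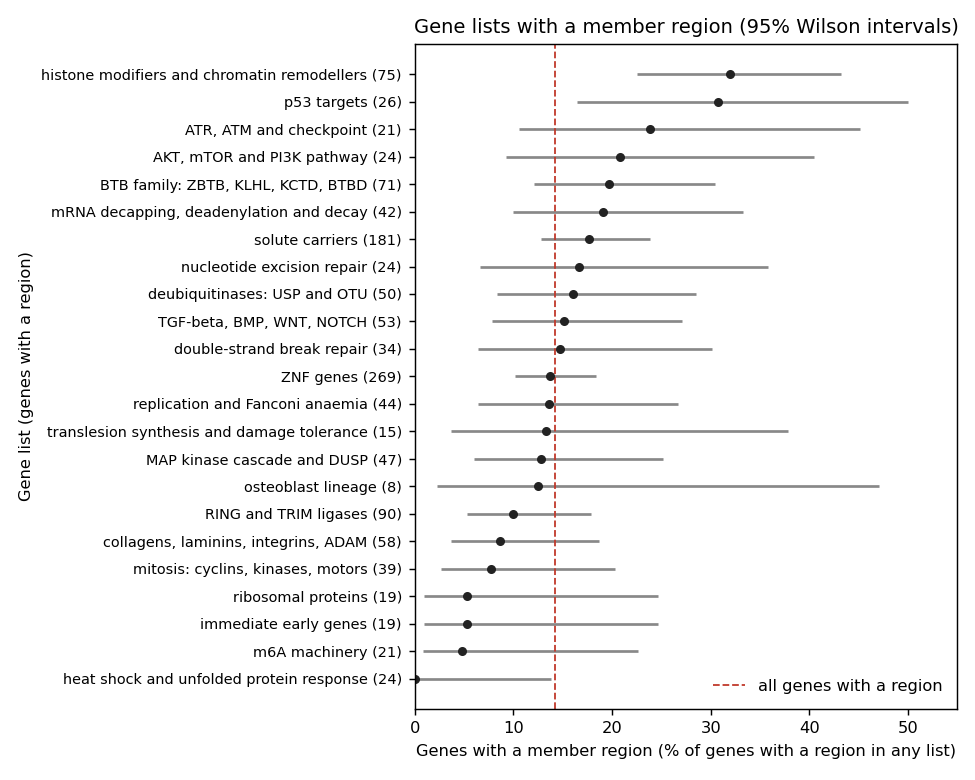
Percent of genes with a region that carry a member (x axis) for each gene list (y axis), with 95% Wilson intervals, and a dashed line at the 14.2% of all genes. The blood, epithelial and neuronal marker lists, with few or no genes with a region, are not drawn. Histone modifiers (32.0%) and p53 targets (30.8%) have unwidened intervals above the line among 26 lists, and heat shock genes are at 0.

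By chromosome, members stood apart on 8 and 11, which were picked after all 23 chromosomes had been compared. On chromosome 8, 100 of the 386 regions in both WT lists were members (25.9%, 21.8 to 30.5) against 15.6% on the other chromosomes. The difference was 10.3 points, and its interval widened for 23 comparisons ran from 4.02 to 17.8. The 100 members lay on 73 transcripts, 54 of them on transcripts without a KO peak and 46 on transcripts with one elsewhere. Along the chromosome the share was 34.3% for genes that start in the first 30000000 bases (36 of 105), 21.6% up to base 90000000 (25 of 116) and 23.6% beyond it (39 of 165). Genes with 3 members there were CLN8, HR, INTS10, KCNQ3, PLEC and the arginine transporter SLC7A2. Over all peaks of each list, chromosome 8 held 3.66% of WT minus UV and 3.64% of WT plus UV peaks but 2.95% of KO minus UV and 2.76% of KO plus UV peaks. The lists hold neither gene copy number nor RNA level, so the part of either in this difference between WT and KO cells was not tested.

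On chromosome 11, 57 of 560 regions were members (10.2%) against 16.3% elsewhere, a difference of -6.13 points with a widened interval of -9.62 to -1.40. It held 5.53% and 5.38% of all WT peaks without and with UV, and 5.80% and 6.11% of all KO peaks. The widened intervals of the other 21 chromosomes held 0.

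**Figure D5:**
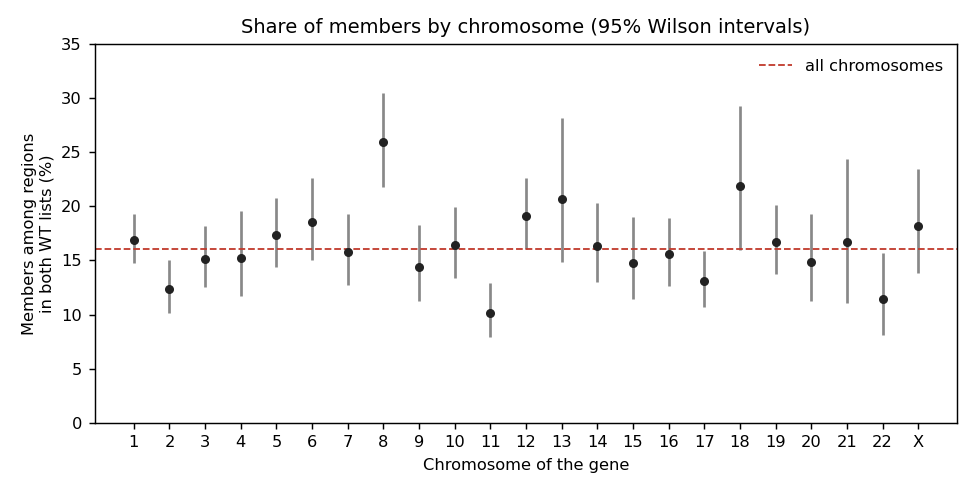
Percent of regions in both WT lists that are members (y axis) on each chromosome (x axis), with 95% Wilson intervals and a dashed line at the 16.0% of all such regions. Chromosome 8 (25.9%) lies above the line and chromosome 11 (10.2%) below it.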

How the data were processed

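RNA bound by an m6A antibody and input RNA came from 24 samples, 12 of them IP. Per the submitters' processing notes, TopHat2 2.0.14 aligned the reads to hg38. The peak calling and the joining of replicates and inputs were not given in the sources used here. As deposited, the values carry no unit of signal (other): the authors' 4 lists give a RefSeq transcript with the start and end of each peak in bases, read here as counted from 1 with both ends included.

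Peaks sharing at least 1 base were merged with Python 3.11.15, and the merging code was run on simulated data (100% of 6993 planted regions recovered). The planted regions never touched and held at most 1 peak of each list, with edges shifted by a few bases. Touching regions and regions with several peaks of a list were therefore not tried. Of 9674 transcripts, 9563 matched a gene of the RefSeq table (GRCh38.p14); the other 111 entered no gene count. Shares carry Wilson and differences Newcombe 95% intervals. No test between conditions was made. Members and the 26 gene lists were chosen with earlier results of these data known.

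Named genes were the 12 with the most members, the 10 longest members, the 10 genes without a KO peak with the greatest member length, up to 4 genes of each list, and up to 4 members or regions on each side of the rule's threshold. Start sequences came from RefSeq promoter windows. Alternatives covered merging, peak width, 1 region per transcript (the longest in both WT lists) and the lists used.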

Additional observations from a re-analysis of the deposited data

How the results depend on the processing

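The number of members was 4287 with the lists without UV only and 681 with genes in place of regions, and stayed between 1452 and 2338 under the other alternatives. The share on transcripts without a KO peak was 47.5% when peaks had to share 50 bases and 54.5% when peaks up to 100 bases apart were merged. It was 54.7% with peaks of at least 150 bases and 72.6% with 1 region per transcript. That last setting kept the longest region of each transcript in both WT lists. Members beside a longer region with a KO peak dropped out, while every member transcript without a KO peak kept a member. Counted by member transcripts, the share was 48.0% (663 of 1381). Points are members minus the other regions in both WT lists. For ZNF genes the value was 1.03 with the 100-base merge, 1.01 with peaks wider than 100 bases, 1.07 with at least 150 bases and 1.25 with 1 region per transcript, with intervals above 0. For a start in the first 100 bases it was 1.86 with peaks wider than 100 bases, 2.85 with at least 150 and 4.91 without the KO plus UV list. With 1 region per transcript it was 0.50 for the first 20 bases, 2.65 for the first region and 2.37 for genes of at least 100000 bases. Without the KO plus UV list it was 0.27 for genes of at least 100000 bases. For a wider peak with UV it was -2.16 with peaks wider than 100 bases and -1.08 with at least 150. For the last region it turned to -0.59 with the 100-base merge, -2.01 with at least 150 bases and -0.62 without the KO plus UV list, all with intervals that held 0. Apart from the share of 72.6%, the cause of these shifts was not tested. Noncoding transcripts and chromosomes 8 and 11 kept their direction, with intervals that excluded 0, under every alternative run for them; these were plain 95% intervals, not widened for the 23 chromosomes. The alternatives for the first 20 bases, the order of regions, gene length and chromosomes were chosen after seeing the data. No paired analysis was possible because each condition is 1 list, and for the same reason no replicate could be left out. Motifs over whole regions were not run. The depth behind the lists is unknown, so a missing KO peak does not show that the mark is absent.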
